A study of Homo sapiens with 14 samples.

Results

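A549 cells treated with palbociclib alone were compared with untreated A549 cells by RNA sequencing. The comparison used the 4 libraries whose titles give A549 with the treatment PD or UT and a replicate number, out of 14 libraries in the series, and it was described across all genes. The untreated group (2 libraries) received no drug. The palbociclib group (2 libraries) received 2 µM palbociclib for 10 days. The other 3 pairs of A549 libraries served for reference: 0.5 µM indisulam for 10 days, 2 µM palbociclib with 0.5 µM indisulam for 10 days, and 0.5 µM PF-06873600 for 7 days. The labels give no genetic change for any group, and the series describes the libraries of a group as technical duplicates. The p-values below therefore measure the spread between libraries, not between independent cultures, and they apply to 1 line only.

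A549 is a lung adenocarcinoma line with wild-type p53. Palbociclib inhibits the kinases CDK4 and CDK6. With D-type cyclins these kinases phosphorylate RB1, which releases E2F transcription factors, and E2F factors switch on genes for DNA replication. CDK2 with cyclin E can phosphorylate RB1 as well, so cells can escape from a CDK4 and CDK6 block. Genes of mitosis are switched on later in the cycle, through MYBL2 and FOXM1. Lasting arrest can pass into senescence, which often comes with secreted chemokines, proteases and growth factor binding proteins.

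The libraries held 14712412 and 15000694 reads on genes in untreated cells and 13475593 and 16388606 in palbociclib-treated cells. Levels are given as CPM, counts scaled to a library total of 1000000 of these reads, always in the order replicate 1, replicate 2. A count of 0 allows up to 3 reads, which corresponds to 0.204 and 0.2 CPM in the untreated and 0.223 and 0.183 CPM in the palbociclib libraries, counting error only. The labels were checked against genes that mark the line. The cyclin-dependent kinase inhibitors CDKN2A and CDKN2B, deleted in A549, had 0 reads in all 10 A549 libraries. Epithelial keratins were abundant: KRT8 stood at 2344 and 1908 CPM in untreated cells, KRT18 at 2652 and 2389 CPM. Of 6 leukocyte markers none was called in edgeR's test, with CD14 at 5.03 and 4.07 CPM in untreated and 5.86 and 5.43 CPM in treated cells and LYZ at 2.38 and 2.40 against 3.19 and 2.69 CPM. CD68 was at or under 0.2 CPM, CD3E and MS4A1 were at 0 reads in all 4 libraries, and PTPRC was at 0 in 3 of them and at 0.133 CPM in the other. Of 6 fibroblast markers, COL3A1, DCN, LUM and PDGFRA were at or under 0.223 CPM, and PDGFRB stood at 0 and 0.2 CPM in untreated and 0.371 and 0.305 CPM in treated cells. COL1A1 rose from 1.90 and 1.93 to 3.49 and 4.09 CPM (0.99 ± 0.20, edgeR adjusted p = 0.00324), and was not called without palbociclib replicate 2 (0.86). The part of such cells in the results was not tested. The surfactant genes of alveolar type II cells, which A549 is often used to model, were absent: SFTPA1 and SFTPB had 0 reads in all 4 libraries, and the lung transcription factor NKX2-1 was at or under 0.133 CPM.

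The libraries of a group were not equally alike. Reads from mitochondrial genes made up 5.22% and 4.18% of gene reads in untreated cells and 4.37% and 5.87% in palbociclib-treated cells. Reads outside genes made up 6.13% and 5.30% in untreated cells and 4.59% and 6.18% in treated cells. Untreated replicate 1 thus resembled palbociclib replicate 2 in both measures, and untreated replicate 2 resembled palbociclib replicate 1. The part of these differences in the results was not tested, and counts that shift without a library are given with that shift.

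Palbociclib changed many genes by a modest amount. A gene was called when the Benjamini-Hochberg adjusted p of edgeR's quasi-likelihood test was under 0.05, with all 10 A549 libraries sharing 1 estimate of the spread. Of 15780 genes tested, 1310 were higher (8.30%) and 1168 were lower (7.40%) with palbociclib, 15.7% in all. In every one of them the palbociclib libraries did not overlap the untreated libraries, which was the case for 24.0% (higher) and 26.5% (lower) of all genes tested. The median change of the called genes above the counting floor was 0.49 on the log2 scale (1.4-fold) upward and -0.39 (1.31-fold) downward. At least 2-fold changes were seen in 210 of 1283 genes that rose and 128 of 1158 that fell. The untreated and palbociclib pairs were the least alike of the 5 pairs that share this estimate. The chi-square per degree of freedom between the 2 libraries of a group was 9.57 in untreated and 5.04 in palbociclib, against 3.08 in indisulam, 2.22 in combination and 1.61 in PF-06873600 libraries. With the 4 libraries of the comparison alone, 543 genes were called higher and 406 lower, all of them among the 2478 called with 10 libraries. In bulk RNA, fewer cells in a state and less RNA per cell cannot be told apart.

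**Figure D1:**
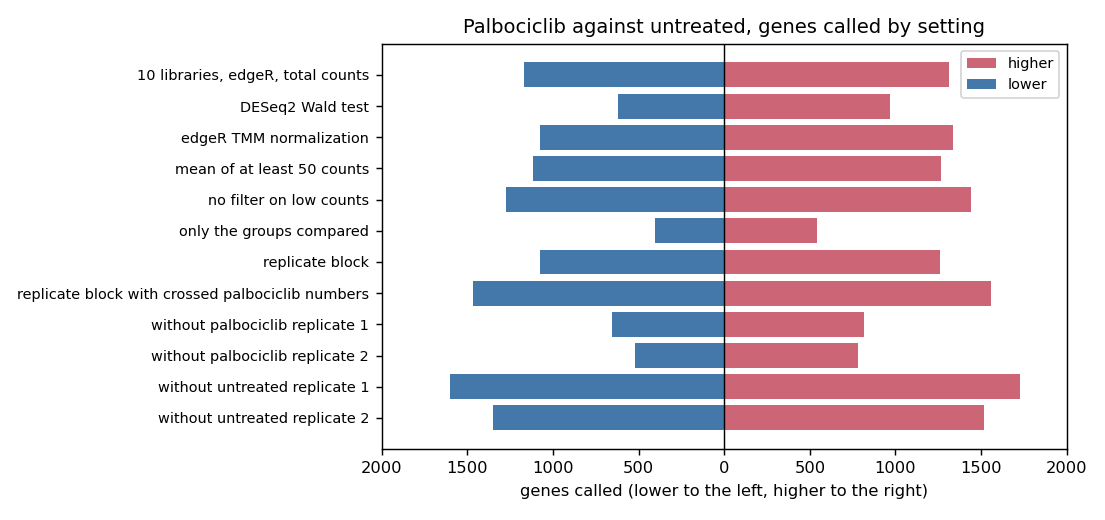
Genes called in palbociclib against untreated under each setting, lower to the left and higher to the right of 0 (x axis, number of genes). The calls fall from 1310 higher and 1168 lower with 10 libraries to 543 and 406 when only the 4 libraries compared enter the fit.

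Among called genes with at least 10 CPM in the higher group, secreted and adhesion proteins were among the 10 largest increases. CFI, the complement factor I protease (ENSG00000205403, chromosome 4, 109731008 to 109802150, hg38), stood at 4.08 and 3.60 CPM in untreated and 16.3 and 19.3 CPM in treated cells, a log2 fold change of 2.22 ± 0.13 (SE, adjusted p = 1.3e-07). SLIT3, a secreted guidance ligand, rose from 3.81 and 3.60 to 19.0 and 15.1 CPM (2.19 ± 0.15). ITIH5, which binds hyaluronan, rose from 2.92 and 2.87 to 11.7 and 12.4 CPM (2.06 ± 0.13). CEMIP, which takes part in hyaluronan breakdown, went the same way, from 9.18 and 7.53 to 35.7 and 29.9 CPM (1.97 ± 0.12). In these genes each treated library was several times above both untreated libraries. CXCL8, the neutrophil chemokine interleukin-8, rose from 6.32 and 7.00 to 24.9 and 25.8 CPM (1.92 ± 0.10). TNS4, a tensin of focal adhesions, rose from 42.0 and 35.2 to 138 and 137 CPM (1.83 ± 0.08, adjusted p = 9.28e-09). Among the 10 largest were also SCEL (1.74), the chloride channel CFTR (1.58), the sphingosine-1-phosphate receptor S1PR3 (1.57) and the Wnt antagonist NKD1 (1.55).

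CEACAM5 and airway mucins were among the 10 largest decreases at the same minimum of 10 CPM. CEACAM5, the carcinoembryonic antigen (ENSG00000105388, chromosome 19, 41708585 to 41730433), fell from 55.9 and 49.7 CPM to 9.94 and 8.30 CPM, a log2 fold change of -2.54 ± 0.11 (adjusted p = 9.28e-09) or 5.79-fold. The gel-forming airway mucin MUC5AC (ENSG00000215182, chromosome 11, 1157953 to 1201138) fell from 3693 and 2576 to 998 and 973 CPM (-1.67 ± 0.13). Its untreated libraries lay apart from each other, and both lay above the treated ones. The membrane mucin MUC16 fell from 10.3 and 10.7 to 4.01 and 3.29 CPM (-1.53 ± 0.21), and BPIFB1, a secreted airway defence protein, from 33.2 and 32.9 to 12.2 and 13 CPM (-1.39 ± 0.11). TXNIP, a glucose-induced arrestin that restrains glucose uptake, fell from 85.0 and 87.1 to 28.6 and 28.0 CPM (-1.60 ± 0.11). Its relative ARRDC4 fell from 6.87 and 7.20 to 3.79 and 3.23 CPM (-1.01 ± 0.19). Neurotensin (NTS) fell by 1.91 on the log2 scale, the stress protein gene NIBAN1 by 1.60, the retinol dehydrogenase gene SDR16C5 by 1.53, IGSF10 by 1.51 and the actin-severing scinderin gene SCIN by 1.41. CEACAM5 has near relatives in its gene family, and how reads shared with them were placed is not given in the sources used here.

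**Figure D2:**
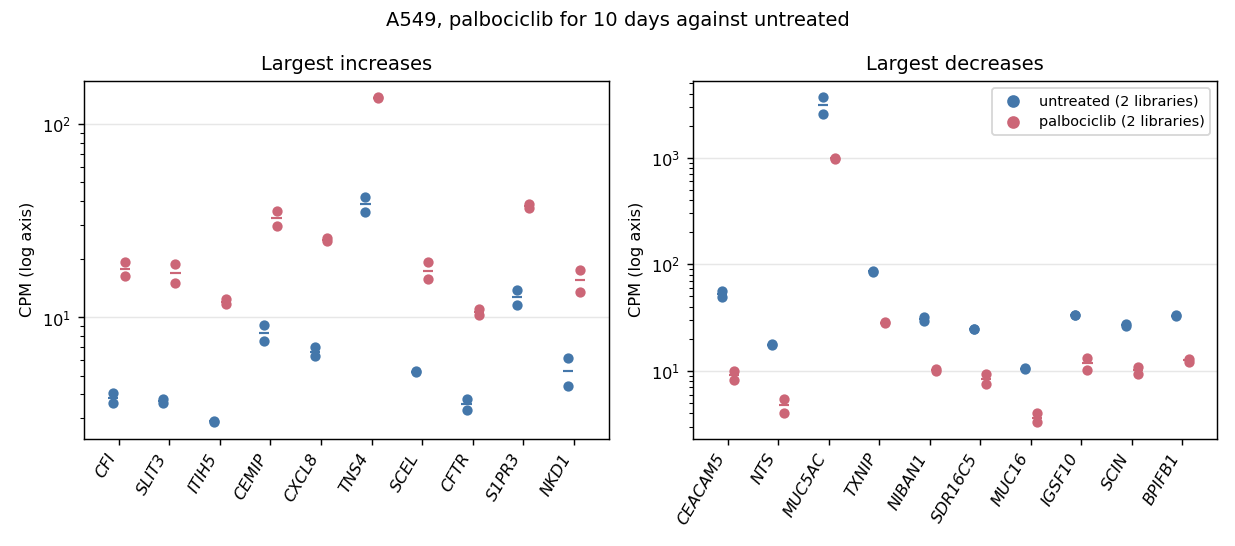
CPM (log axis) of the 10 genes with the largest increases (left) and the 10 with the largest decreases (right) among called genes with at least 10 CPM in the higher group, in each untreated and palbociclib library, with a bar at each group's mean. The groups do not overlap in any of the 20 genes, which holds for every called gene. CEACAM5, for example, is at 55.9 and 49.7 against 9.94 and 8.30 CPM.

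Of the drug targets, CDK4 stood at 170 and 179 CPM in untreated and 168 and 168 CPM in treated cells (log2 fold change -0.06 ± 0.06, adjusted p = 0.589). CDK6 was at 40.2 and 50.7 against 59.4 and 54.3 CPM (0.32 ± 0.09, adjusted p = 0.0282). Of the cyclins that partner the CDKs of G1, CCND1, CCND3 and CCNE1 rose. CCND1 went from 429 and 406 to 646 and 638 CPM (0.62 ± 0.05, adjusted p = 3.1e-06), CCND3 from 155 and 145 to 277 and 273 CPM (0.87 ± 0.05) and CCNE1 from 10.3 and 11.3 to 19.5 and 20.8 CPM (0.90 ± 0.10). The activating E2F genes E2F1 (14.2 and 14.3 to 22.9 and 24.6 CPM, 0.74 ± 0.10) and E2F3 (0.40 ± 0.07) also rose. The repressive E2F genes E2F8 (4.69 and 5.13 to 1.34 and 2.08 CPM, -1.50 ± 0.24, adjusted p = 0.000673) and E2F7 (-0.62 ± 0.19) fell. CDKN1A, which encodes p21, rose from 39.2 and 43.7 to 56.0 and 54.3 CPM (0.41 ± 0.07), while the CDK inhibitor genes CDKN2C (-0.64 ± 0.09) and CDKN1B (-0.37 ± 0.08) fell. Values that did not pass the test were 0.15 ± 0.09 for RB1, 0.21 ± 0.08 for CDK2, -0.41 ± 0.28 for CCNE2, -0.26 ± 0.10 for CCNH and 0.19 ± 0.10 for CDK7. Of 28 members of the CDK4/6-RB list tested, 7 rose and 5 fell (25% and 17.9%, against 8.30% and 7.40% of all genes), and the number that fell was 2 without palbociclib replicate 2 and with the 4 libraries alone. The calls of CDK6 (0.16 without untreated replicate 1, 0.26 and 0.39 without palbociclib replicate 1 and 2), CDKN1B (-0.28 without palbociclib replicate 2) and E2F7 (-0.29 without untreated replicate 2, -0.68 and -0.56 without palbociclib replicate 1 and 2) were lost on leaving out a library. RBM39, the splicing factor that indisulam degrades, and DCAF15, the receptor it needs, did not pass the test with palbociclib alone (-0.12 ± 0.08 and 0.22 ± 0.14).

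Many genes of DNA replication rose after 10 days of the drug. Of 55 replication and nucleotide synthesis genes tested, 23 rose and 3 fell, which is 41.8% higher and 5.45% lower against 8.30% and 7.40% of all genes. The median log2 fold change was 0.20, beside -0.006 over all genes. Origin licensing factors were among them. CDC6, which loads the helicase, rose from 27.9 and 32.8 to 64.9 and 58.0 CPM (1.01 ± 0.10, adjusted p = 6.57e-06), ORC6 of the origin recognition complex from 9.52 and 9.87 to 20.0 and 21.2 CPM (1.09 ± 0.12), and CHTF18 of the clamp loader from 8.02 and 4.40 to 12.5 and 16.9 CPM (1.25 ± 0.21). All 6 subunits of the MCM2 to MCM7 helicase rose, from 0.22 ± 0.06 (MCM7, 141 and 130 to 156 and 159 CPM) and 0.26 ± 0.08 (MCM6) through 0.58 (MCM3), 0.62 (MCM4) and 0.64 (MCM2) to 0.94 ± 0.08 (MCM5, 40.8 and 36.5 to 75.0 and 73.2 CPM). The sliding clamp PCNA went from 117 and 119 to 138 and 131 CPM (0.19 ± 0.06, adjusted p = 0.0402). The 3 that fell were the primase subunit gene PRIM1 (-0.61 ± 0.18), which overlaps another gene on its strand, and the nucleotide synthesis genes RRM2 (-0.38 ± 0.07) and TYMS (-0.35 ± 0.08), of which 1 was called with the 4 libraries alone or without palbociclib replicate 2. The number that rose was 11 with the 4 libraries alone and 14 without palbociclib replicate 1. Leaving out a library ended the call of PCNA (0.17 without untreated replicate 1, 0.15 and 0.23 without palbociclib replicate 1 and 2), MCM7 (0.24 and 0.21 without palbociclib replicate 1 and 2), MCM6 (0.23 without untreated replicate 2, 0.28 and 0.24 without palbociclib replicate 1 and 2), PRIM1 (-0.45 without untreated replicate 2, -0.32 without palbociclib replicate 2) and TYMS (-0.32 without palbociclib replicate 2).

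Many genes of mitosis fell at the same time. Of 59 mitosis and G2/M genes tested, 23 fell and 7 rose (39.0% and 11.9%, against 7.40% and 8.30% of all genes), with a median log2 fold change of -0.22. HMGB2, a chromatin protein lost in senescent cells, fell from 66.8 and 74.3 to 39.2 and 35.9 CPM (-0.91 ± 0.09, adjusted p = 9.22e-06). The mitotic kinase AURKB fell from 23.1 and 20.7 to 11.8 and 12.3 CPM (-0.86 ± 0.12), and the proliferation marker MKI67 from 172 and 182 to 123 and 107 CPM (-0.62 ± 0.08). LMNB1, the nuclear lamin B1, fell from 48.3 and 47.7 to 38.4 and 34.6 CPM (-0.40 ± 0.08), and the kinase PLK1 from 74.9 and 72.7 to 57.1 and 58.8 CPM (-0.35 ± 0.06). The central mitotic kinase gene CDK1 and its cyclin gene CCNB1 had values of -0.14 ± 0.10 and -0.13 ± 0.07 that did not pass. Members that rose included the condensin gene SMC2 (24.6 and 26.1 to 39.6 and 43.1 CPM, 0.71 ± 0.10) and the spindle checkpoint gene MAD2L1 (0.63 ± 0.10). The tubulin gene TUBB4B fell by 0.31 on the log2 scale. The number that fell was 11 with the 4 libraries alone and 12 without palbociclib replicate 2, and the number that rose was then 4 and 3. Without palbociclib replicate 2 the calls of LMNB1 (-0.32) and TUBB4B (-0.31) were lost.

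The promoters of these groups differ in known sequence words, which are shown because the groups moved apart. RefSeq promoters (GRCh38.p14), 250 bases before to 50 after the start, were found for 47 of the 55 replication genes and 49 of the 59 mitosis genes and were read on both strands. The E2F word (TTTCGCGC or TTTGGCGC) was in 11 of 47 replication promoters (23.4%), 1 of 49 mitosis promoters (2.04%), 1.93% of the 11517 promoters of tested genes and 1.18% of all 27305 promoters. The CHR word (TTTGAA or TTCGAA), known from late cell cycle promoters, was in 34 of 49 mitosis promoters (69.4%), 4 of 47 replication promoters (8.51%), 11.4% of the promoters of tested genes and 16.6% of all promoters. It was in 12 of the 19 promoters of mitosis genes that fell and in 5 of the 7 of those that rose. The stretch from 200 bases before to 25 after the start is printed 5′ to 3′ on the gene's strand, with the words in capitals, for 2 replication genes that rose (CDC6, chr17:40287679-40287903, plus strand, and MCM2, chr3:127598211-127598435, plus strand) and 2 mitosis genes that fell (MKI67, chr10:128126399-128126623, minus strand, and PLK1, chr16:23678689-23678913, plus strand). The genes were picked because their promoters hold a word. ORC6, which rose, has no E2F word and AURKB, which fell, no CHR word in the same stretch. A match describes the sequence and is not a measured binding site.
CDC6: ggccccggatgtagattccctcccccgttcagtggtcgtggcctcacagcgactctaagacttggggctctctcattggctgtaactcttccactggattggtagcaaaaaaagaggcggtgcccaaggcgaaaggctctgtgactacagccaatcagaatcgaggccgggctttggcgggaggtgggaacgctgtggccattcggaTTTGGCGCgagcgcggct
MCM2: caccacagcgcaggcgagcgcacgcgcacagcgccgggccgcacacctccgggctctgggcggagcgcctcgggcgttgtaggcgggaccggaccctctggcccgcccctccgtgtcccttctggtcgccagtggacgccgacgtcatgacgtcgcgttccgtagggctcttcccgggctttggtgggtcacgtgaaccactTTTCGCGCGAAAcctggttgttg
MKI67: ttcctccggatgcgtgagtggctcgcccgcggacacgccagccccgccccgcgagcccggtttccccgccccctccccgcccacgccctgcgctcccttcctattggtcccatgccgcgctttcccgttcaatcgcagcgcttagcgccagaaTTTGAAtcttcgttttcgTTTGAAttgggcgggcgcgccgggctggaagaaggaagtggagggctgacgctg
PLK1: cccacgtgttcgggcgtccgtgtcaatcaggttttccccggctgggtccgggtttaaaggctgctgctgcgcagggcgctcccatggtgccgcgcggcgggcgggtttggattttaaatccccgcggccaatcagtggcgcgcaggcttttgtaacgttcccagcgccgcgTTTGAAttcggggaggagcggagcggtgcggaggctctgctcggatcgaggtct

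Part of the homologous recombination and Fanconi repair genes rose as well. Of 36 tested, 11 rose and 2 fell (30.6% and 5.56%, against 8.30% and 7.40% of all genes), with a median log2 fold change of 0.17. FANCM, a DNA translocase of the Fanconi pathway, went from 6.46 and 6.67 to 14 and 14.3 CPM (1.11 ± 0.13, adjusted p = 3.63e-05), FANCB of its core complex from 2.79 and 3.0 to 5.79 and 5.86 CPM (1.01 ± 0.22) and the homologous recombination gene XRCC2 from 9.24 and 8.33 to 13.3 and 18.4 CPM (0.86 ± 0.15). The number that rose was 6 with the 4 libraries alone and without palbociclib replicate 2. The 2 that fell became 0 with the 4 libraries alone and 1 with DESeq2 or with either palbociclib library left out.

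Of 36 p53 target genes tested, 7 rose and 2 fell (19.4% and 5.56%, against 8.30% and 7.40% of all genes), with a median of 0.07. TP53INP1, a stress-induced regulator of p53, went from 10.5 and 12.3 to 25.6 and 28.7 CPM (1.26 ± 0.11), the metabolic phosphatase gene TIGAR from 6.87 and 10.5 to 17.9 and 15.7 CPM (0.94 ± 0.15) and the death receptor gene FAS from 6.93 and 8.40 to 10.5 and 12.9 CPM (0.62 ± 0.13). Of 15 BCL2 family genes 3 rose and none fell in edgeR's test (20.0% higher): the anti-apoptotic BCL2L1 (254 and 251 to 367 and 365 CPM, 0.54 ± 0.05, adjusted p = 7.33e-06) and MCL1 (0.29 ± 0.05), and the pro-apoptotic BID (0.33 ± 0.08). Without palbociclib replicate 2, FAS (0.45) and BID (0.28) were no longer called, nor was MCL1 (0.29) with the 4 libraries alone.

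The same drug was also added to indisulam, an aryl sulphonamide, in libraries that share none with the comparison above. There 46.0% of genes were called, 3479 higher and 3773 lower. Of the 1310 genes that rose with palbociclib alone, 667 (50.9%) rose and 293 (22.4%) fell when it was added to indisulam, where 22% of all genes rose and 23.9% fell. Of the 1168 that fell alone, 671 (57.4%) fell and 100 (8.56%) rose. Across the 15780 genes the log2 fold changes had a Pearson r of 0.303 and a Spearman rho of 0.285, given as a description, since genes are not independent. The difference between the effects was itself tested by the interaction term, which called 3977 genes (25.2%). It covered 713 of the 1310 genes (54.4%) and 479 of the 1168 (41.0%). These genes were picked on the palbociclib and untreated values that also enter the interaction. The choice alone can raise these shares, so no conclusion is drawn from their distance to 25.2%.

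The difference covered nearly all replication and mitosis genes. The replication genes' mean log2(CPM + 1) over 55 genes was 4.65 and 4.67 in untreated and 4.91 and 4.90 in palbociclib libraries, but 4.68 and 4.64 with indisulam and 3.61 and 3.58 with the combination. Of the 55 genes 0 were higher and 52 lower when palbociclib was added to indisulam, by a median of -1.03, and at an interaction adjusted p under 0.05 the effect was lower with indisulam in 51 (14.5% of all genes). CDC6 had a mean of 27.6 CPM with indisulam and 8.03 CPM with the combination, and its effect differed by -2.80 ± 0.16. The mitosis genes had a mean of 5.28 and 5.34 in untreated, 5.16 and 5.14 in palbociclib, 5.25 and 5.29 in indisulam and 3.48 and 3.47 in combination libraries. All 59 were lower when palbociclib was added to indisulam, by a median of -2.21, and the interaction was lower in 58. MKI67 had a mean of 143 CPM with indisulam and 29.6 CPM with the combination. Genes that moved one way in both settings included CEACAM5 (-2.54 alone, -2.19 with indisulam) and MUC5AC (-1.67 and -1.95), with interaction adjusted p-values of 0.128 and 0.281.

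**Figure D3:**
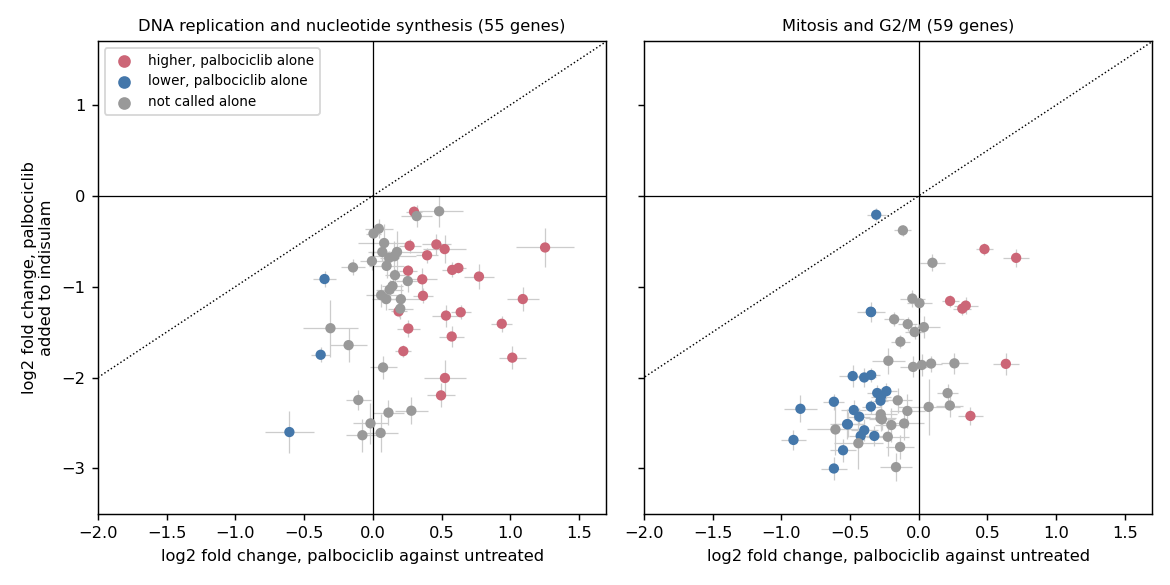
Log2 fold change of palbociclib against untreated (x axis) and of palbociclib added to indisulam (y axis) for 55 replication genes (left) and 59 mitosis genes (right), with SE bars and a dotted line where both would be equal; colours mark the call with palbociclib alone. Replication genes lie mostly right of 0 and mitosis genes mostly left of it, and all 55 replication genes and 58 of the 59 mitosis genes lie below the dotted line, with medians of -1.03 and -2.21 on the y axis.

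Many secreted inflammatory genes rose with palbociclib alone. Of 19 chemokines and interleukins tested, 12 rose and none fell in edgeR's test (63.2% against 8.30% of all genes), with a median log2 fold change of 1.05. CXCL5, a neutrophil chemokine, rose from 215 and 251 to 483 and 479 CPM (1.05 ± 0.07, adjusted p = 1.6e-07) and CXCL1 from 25.8 and 23.8 to 39.6 and 41.4 CPM (0.71 ± 0.08). CXCL2 rose from 2.52 and 2.87 to 5.57 and 7.38 CPM (1.28 ± 0.24). IL6, the senescence-associated interleukin-6, was low: it had 0.544 and 0.533 CPM in untreated and 2.52 and 1.89 CPM in treated cells (2.00 ± 0.33, adjusted p = 0.000793). IL33 and CCL26 were at or under 3 reads in untreated libraries. The treated means were at least 3.98-fold (IL33) and 4.38-fold (CCL26) above the floor of 3 reads per library. The other 11 genes of the list of 30 were too low to be tested. Of 16 NF-kB subunit and feedback genes 2 rose (12.5%, near the 8.30% of all genes) and none fell, with a median of -0.17. The 2 were BCL3 (54.0 and 43.5 to 73.4 and 74.9 CPM, 0.61 ± 0.08) and NFKBIZ (0.44 ± 0.13). NFKBIZ was not called without untreated replicate 2 (0.41) or palbociclib replicate 2 (0.15).

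The secretory (SASP) list the study cites from Hernandez followed the chemokines, with which it shares members: 14 of 21 rose (66.7%, against 8.30% of all genes), none fell, and the median was 0.68. IGFBP7, an insulin-like growth factor binding protein, rose from 2.79 and 2.07 to 7.79 and 7.44 CPM (1.65 ± 0.17). The collagenase gene MMP1 went from 0.748 and 0.6 to 1.78 and 1.65 CPM (1.33 ± 0.34), a call lost without untreated replicate 2 (1.18) and without palbociclib replicate 1 (1.28) or 2 (1.39). A strict form of the NF-kB site, searched on both strands, was in 7 of 13 chemokine promoters found (53.8%), 4.48% of the promoters of tested genes and 3.87% of all promoters. Among the chemokines that rose it was in 5 of 9 promoters found (55.6%), a share close to that of the list. It is marked in capitals in the CXCL1 promoter (chr4:73869193-73869417, plus strand), cut as above and picked because it holds the site. CXCL8, which rose more, has no such site in the same stretch.
CXCL1: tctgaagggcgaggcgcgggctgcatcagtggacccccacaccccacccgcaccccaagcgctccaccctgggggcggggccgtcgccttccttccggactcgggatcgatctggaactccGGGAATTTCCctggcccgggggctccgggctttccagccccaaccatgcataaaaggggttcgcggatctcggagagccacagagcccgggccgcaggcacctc

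Many interferon-stimulated genes rose. Of 47 tested, 22 rose and 2 fell (46.8% and 4.26%, against 8.30% and 7.40% of all genes), with a median log2 fold change of 0.41. LGALS3BP, a secreted glycoprotein, rose from 290 and 223 to 338 and 343 CPM (0.41 ± 0.09). GBP1, a guanylate-binding GTPase, rose from 1.77 and 1.6 to 4.67 and 4.76 CPM (1.48 ± 0.18) and ISG15, a ubiquitin-like modifier, from 1.02 and 0.667 to 2.23 and 2.44 CPM (1.47 ± 0.29). OASL had 3 reads in each untreated library and was at least 3.86-fold higher with palbociclib. The core of the interferon-stimulated response element, searched on both strands, was in 26 of 38 promoters of the list found (68.4%), 2.79% of the promoters of tested genes and 3.65% of all promoters. Among members that rose the core was in 12 of 18 promoters found (66.7%), a share close to that of the list, and among those that fell in 1 of 2. It is marked in capitals in the GBP1 promoter (chr1:89065184-89065408, minus strand), cut as above and picked because it holds the core. With the 4 libraries alone, 10 members rose. The 2 that fell became 0 with DESeq2 and without palbociclib replicate 1 or 2, and 1 without untreated replicate 1, with the 4 libraries alone or with the replicate block. Of 17 class I antigen presentation genes 4 rose (23.5%), among them PSMB9 (0.53 ± 0.13), NLRC5 (0.51 ± 0.16) and TAP2 (0.50 ± 0.13), and 2 fell (11.8%). The 4 became 0 with the 4 libraries alone and without palbociclib replicate 2, 1 with DESeq2 and without palbociclib replicate 1, and 2 with either untreated library left out, and the 2 that fell became 0 with the 4 libraries alone, with DESeq2 and with either palbociclib library left out. Without palbociclib replicate 2, PSMB9, NLRC5 and TAP2 were not called (0.45, 0.44 and 0.50), NLRC5 and TAP2 also not without untreated replicate 1 (0.52 and 0.36) or palbociclib replicate 1 (0.57 and 0.50), and NLRC5 not without untreated replicate 2 (0.51).
GBP1: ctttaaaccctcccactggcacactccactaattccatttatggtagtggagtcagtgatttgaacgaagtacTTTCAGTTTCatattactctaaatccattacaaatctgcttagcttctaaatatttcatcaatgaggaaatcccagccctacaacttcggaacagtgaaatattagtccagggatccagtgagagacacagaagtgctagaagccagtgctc

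**Figure D4:**
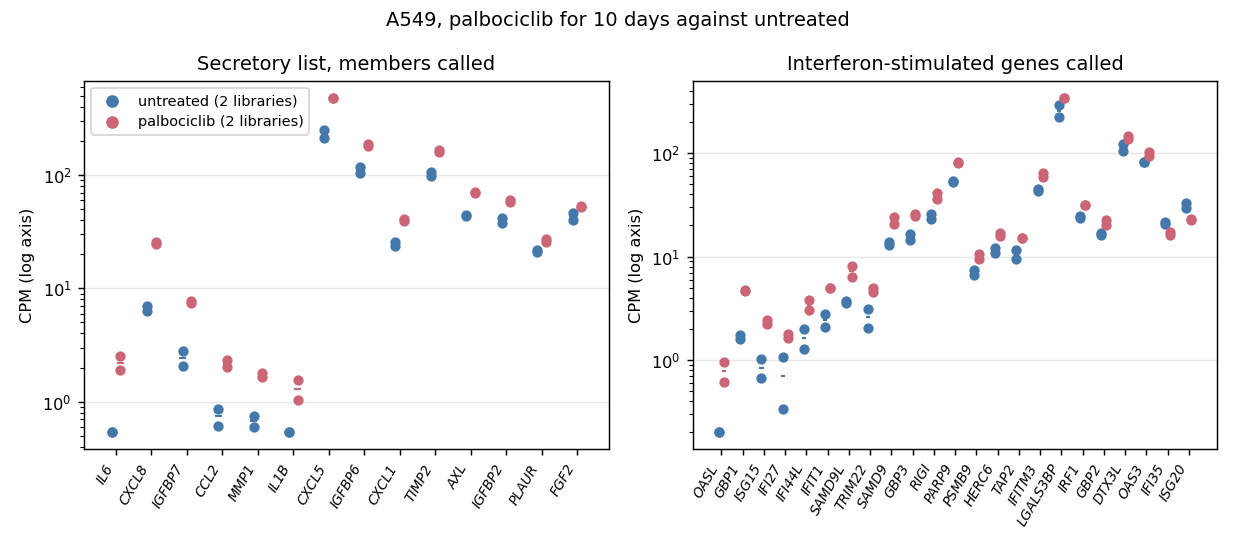
CPM (log axis) in each untreated and palbociclib library of the called members of the Hernandez secretory list (left) and of the interferon-stimulated genes (right), ordered by log2 fold change, with a bar at each group's mean. All 14 called secretory members are higher with palbociclib, as are the interferon-stimulated genes plotted (1 called member is not shown), except the 2 at the right end, which are lower and lose their call with either palbociclib library left out.

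Members of the stress and biosynthesis lists fell. Of 31 genes of the ATF4 and unfolded protein response, 15 fell and none rose in edgeR's test (48.4% lower), with a median of -0.20. DDIT3, the stress transcription factor CHOP, fell from 24.4 and 26.4 to 12.2 and 11.4 CPM (-1.11 ± 0.10, adjusted p = 5.9e-06), TRIB3, a pseudokinase target of ATF4, from 198 and 168 to 98.6 and 92.5 CPM (-0.94 ± 0.08), and NUPR1, a stress-induced chromatin protein, from 84.8 and 89.3 to 57.3 and 53.5 CPM (-0.65 ± 0.07). The number that fell was 8 with the 4 libraries alone. Of 36 cholesterol and fatty acid synthesis genes 8 fell and none rose (22.2% lower, against 7.40% of all genes), 5 with the 4 libraries alone, with INSIG1, which holds back sterol synthesis, at 32.7 and 35.1 against 24.5 and 24.2 CPM (-0.48 ± 0.09) and FADS1 (-0.39 ± 0.07). Of 74 cytoplasmic ribosomal protein genes 14 fell and none rose (18.9% lower), by small amounts: RPL10 went from 1171 and 1217 to 945 and 916 CPM (-0.36 ± 0.06). This number was 1 with the 4 libraries alone or without palbociclib replicate 2, 6 without palbociclib replicate 1, 8 without untreated replicate 2, 45 without untreated replicate 1 and 24 without the filter on low counts, and ribosomal genes also share reads with processed pseudogenes.

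Other metabolic lists showed members in both directions or few calls. Of 50 lysosomal genes 7 rose and 10 fell (14% and 20.0%, against 8.30% and 7.40% of all genes), with GLA, a hydrolase, at 71.9 and 74.7 against 107 and 111 CPM (0.58 ± 0.06), IDS higher (0.69 ± 0.16) and GUSB lower (-0.55 ± 0.08). The 10 that fell became 1 with the 4 libraries alone or without palbociclib replicate 2, 5 without palbociclib replicate 1 and 6 with DESeq2, and the 7 that rose became 12 without untreated replicate 1 and 4 with either palbociclib library left out. Of 35 NRF2 targets 3 rose (8.57%, near the 8.30% of all genes) and 6 fell (17.1%): the aldose reductase gene AKR1B1 rose from 506 and 500 to 1074 and 1086 CPM (1.10 ± 0.05, adjusted p = 2.63e-08) and ALDH3A1, also an aryl hydrocarbon receptor target, from 7362 and 6114 to 9062 and 9266 CPM (0.44 ± 0.07), while the quinone reductase gene NQO1 fell from 3356 and 3578 to 2749 and 2665 CPM (-0.36 ± 0.05). The number that fell was 12 without untreated replicate 1, and the number that rose was 5 with either untreated library left out. Of 6 aryl hydrocarbon receptor targets 2 rose and 1 fell (33.3% and 16.7%). Of the nuclear oxidative phosphorylation genes 4.76% fell, below the 7.40% of all genes. Of the glycolysis and hypoxia genes 17.2% rose and 3.45% fell, against 8.30% and 7.40% of all genes. Of 42 nuclear genes of oxidative phosphorylation 2 fell, among them NDUFB9 (-0.26 ± 0.08), which was not called without untreated replicate 2 (-0.14), palbociclib replicate 1 (-0.31) or palbociclib replicate 2 (-0.20) or with TMM scaling or DESeq2, and 14 fell without untreated replicate 1, while none of the 13 mitochondrial genes passed edgeR's test. Of 29 glycolysis and hypoxia genes 5 rose and 1 fell, the glucose transporter SLC2A1 from 151 and 144 to 175 and 181 CPM (0.28 ± 0.06), but 0 rose with the 4 libraries alone and 2 when either palbociclib library was left out, against 10 without untreated replicate 1.

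In the lists of junction, YAP and TEAD, MAPK, and collagen, laminin and integrin genes some members rose and others fell. The shares below stand against 8.30% higher and 7.40% lower of all genes. Of 32 genes of epithelial junctions and mesenchymal transition 8 rose and 2 fell (25% and 6.25%), and 6 fell without untreated replicate 2. KRT8 rose to 3490 and 3587 CPM (0.74 ± 0.08), KRT18 to 3948 and 3959 CPM (0.65 ± 0.06) and the matrix protein gene TGFBI from 410 and 429 to 746 and 726 CPM (0.81 ± 0.05, adjusted p = 1.6e-07). The adhesion molecule gene EPCAM fell from 18.3 and 20.6 to 10.9 and 11.2 CPM (-0.81 ± 0.11) and the claudin gene CLDN7 from 5.64 and 4.40 to 2.00 and 2.32 CPM (-1.20 ± 0.21). Of 8 alveolar type II and lung epithelial genes that could be tested 1 rose (12.5%, near the share of all genes). CDH1, which encodes E-cadherin, was at 160 and 152 against 144 and 136 CPM and did not pass (-0.15 ± 0.06). Of 20 YAP and TEAD targets 7 rose and 2 fell (35.0% and 10.0%). ANKRD1, a sensitive target, rose from 1.5 and 1.6 to 4.3 and 4.94 CPM (1.58 ± 0.20), the receptor kinase gene AXL from 44.1 and 43.9 to 71.0 and 69.0 CPM (0.67 ± 0.06), and WWTR1, which encodes the coactivator TAZ, from 201 and 230 to 330 and 316 CPM (0.58 ± 0.07). Of 26 MAPK feedback and immediate early genes 8 rose and 2 fell (30.8% and 7.69%), with the AP-1 genes JUN at 7.14 and 6.53 against 16.2 and 13.7 CPM (1.12 ± 0.12) and FOSL2 at 82.2 and 85.9 against 137 and 125 CPM (0.64 ± 0.06). Of 40 collagen, laminin and integrin genes 10 rose and 2 fell (25% and 5.0%), with ITGB4, an integrin of hemidesmosomes, at 944 and 656 against 1248 and 1197 CPM (0.61 ± 0.11). The 10 became 4 with the 4 libraries alone or without palbociclib replicate 2 and 5 without palbociclib replicate 1.

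The senescence signatures the study names gave different counts, which stand against 8.30% higher and 7.40% lower of all genes. Of the Casella list 13 of 41 rose and 2 fell (31.7% and 4.88%, median 0.22). Of the Purcell list 12 of 34 rose and 5 fell (35.3% and 14.7%, median 0.26). Of the Fridman list 15 of 71 rose and 5 fell (21.1% and 7.04%, the latter near the share of all genes, median 0.003). Of the Hernandez list 4 of 30 rose and none fell (13.3% higher, median 0.06). In the Casella list JCAD, a junction protein, rose from 0.476 and 0.667 to 5.19 and 4.58 CPM (3.07 ± 0.26, adjusted p = 2.39e-06). In the Purcell list PLAU, the urokinase protease, rose from 126 and 134 to 308 and 305 CPM (1.24 ± 0.06, adjusted p = 1.42e-08). These lists were compiled elsewhere and share members with each other and with the lists above. The number of Casella members that rose was 7 with the 4 libraries alone and 8 without palbociclib replicate 1. The number of Purcell members that fell was 2 and 1 without palbociclib replicate 1 and 2, and of Fridman members 3 and 1. Without untreated replicate 1, 8 Hernandez members rose and 8 Fridman members fell. The Hernandez median was -0.026 without untreated replicate 2.

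**Figure D5:**
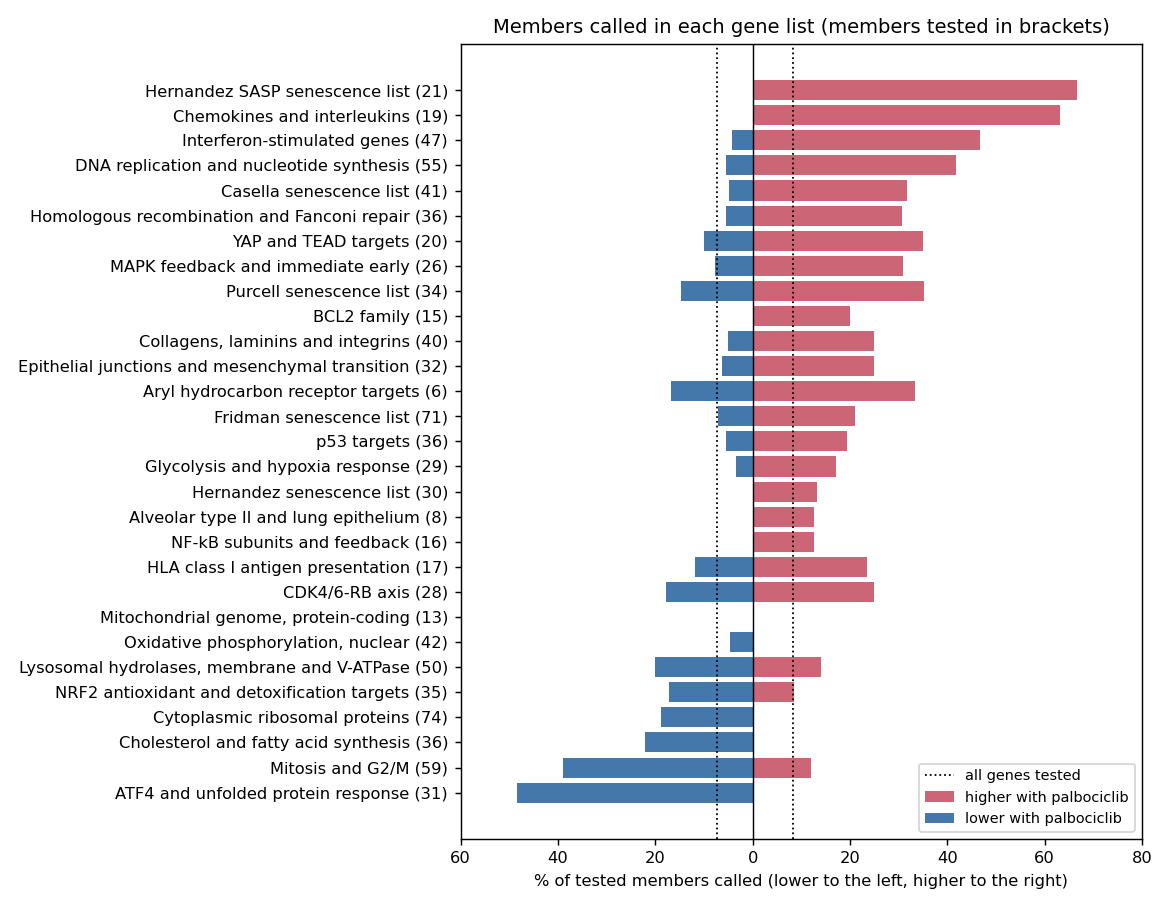
Percent of the tested members of each list called higher (right) or lower (left) with palbociclib, with the number tested in brackets and dotted lines at the share of all genes, 8.30% and 7.40%. The secretory and chemokine lists lie farthest to the right (66.7% and 63.2% higher), and the ATF4 list farthest to the left (48.4% lower).

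PF-06873600, which blocks CDK2 as well as CDK4 and CDK6, was given at 0.5 µM for 7 days, so that dose and time differ from palbociclib and its values are only set beside the others. Of all genes tested, 45.6% were called between the PF-06873600 and palbociclib libraries. CDKN1A had a mean of 41.4 CPM in untreated, 55.2 CPM in palbociclib and 514 CPM in PF-06873600 libraries. The mean log2(CPM + 1) of the 36 p53 targets was 4.56 in both untreated, 4.67 in both palbociclib, and 5.84 and 5.85 in PF-06873600 libraries. That of the replication genes was 5.35 and 5.34 with PF-06873600, and that of the mitosis genes 4.68 and 4.71. MKI67 had a mean of 177 CPM in untreated, 115 CPM in palbociclib and 90.1 CPM in PF-06873600 libraries.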

How the data were processed

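Poly(A) RNA was sequenced with a stranded kit as single-end reads. The authors aligned the reads with HISAT2 2.2.1 to GRCh38 and deposited raw counts per gene made with HTSeq, per the submitters' processing notes and the file contents. The annotation release and the strand setting are not given in the sources used here, so antisense and overlapping genes are uncertain. Of 60683 identifiers, 60370 were in GENCODE v44, which gave symbols and positions. HTSeq summary lines and the SUM159 libraries were left out.

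CPM used the summed gene counts. edgeR 4.0.16 (R 4.3.3) quasi-likelihood fits used all 10 A549 libraries, filterByExpr and total-count scaling. SE is the log2 fold change over the square root of F. DESeq2 1.42.0 was an alternative. On simulated counts for palbociclib against untreated (15265 genes), edgeR recovered 40.8%, 64%, 78% and 94% of changes of 1.3, 1.5, 2 and 4-fold. The simulation gave all groups the same spread. In the data the untreated and palbociclib pairs were the least alike (chi-square per degree of freedom 9.57 and 5.04), so these shares may not hold for this comparison. With 2 against 2 libraries an exact permutation test cannot go below p = 0.33.

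Members and lists were chosen with earlier results of these data known. Genes named are study genes, the 10 largest and 10 lowest fold changes among called genes at 10 CPM or more whose untreated and palbociclib libraries did not overlap, and the top genes of each list. E2F1, E2F3, E2F7, CDKN2C, CDKN1B, MCM2 to MCM7, PRIM1, RRM2, TYMS, MAD2L1, PLK1, CDK1, CCNB1 and CXCL1 were named after their values were seen. CLDN2 was named on its interaction value after that value was seen, and it is not among the genes counted by setting below. Same-numbered untreated and palbociclib libraries deviated in opposite directions (r = -0.219 over 15780 genes), as did palbociclib and indisulam libraries (r = -0.181). Untreated and indisulam libraries deviated in the same direction (r = 0.168). The main fit did not use the numbers as pairs, and whether the palbociclib numbers are crossed is not known. Some genes are not reported here.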

Additional observations from a re-analysis of the deposited data

Results flagged for a closer look

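The effect of palbociclib differed between cells without and with indisulam, by the interaction term of edgeR's quasi-likelihood test with Benjamini-Hochberg adjustment. It was higher with indisulam for 1696 genes (10.7%) and lower for 2281 (14.5%). Among the replication genes it was lower for 51 of 55, and among the mitosis genes for 58 of 59. Of the collagens, laminins and integrins, 19 of 40 had a higher effect with indisulam. The chloride channel gene CFTR rose by 1.58 on the log2 scale without indisulam and fell by 2.08 with it, a difference of -3.66 ± 0.19 (SE, adjusted p = 9.06e-09). For CLDN2, a claudin of tight junctions, the difference was -1.64. For the arrestin gene ARRDC4 it was 3.5 ± 0.42 (adjusted p = 2.51e-05). The cause of these differences was not tested.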

How the results depend on the processing

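None of the 122 single genes that were chosen for naming and called changed sign under any alternative in which it was tested, with 118 of them left at a mean of at least 50 counts. When palbociclib was added to indisulam, more genes were lower (3773) than higher (3479), but DESeq2 called 2523 lower and 2801 higher, and leaving out combination replicate 2 gave 2665 and 2695. With the 4 libraries compared alone, 543 genes were called higher and 406 lower. DESeq2 called 622 lower with palbociclib and 1495 with a lower effect beside indisulam. Leaving out 1 library gave 779 to 1729 genes higher and 522 to 1602 lower, with 816 and 656 without palbociclib replicate 1 and 779 and 522 without palbociclib replicate 2. Of these 122 genes, 88 were called in the same direction with the 4 libraries alone, 107 without palbociclib replicate 1, 91 without palbociclib replicate 2, 113 with DESeq2, and 120 each with TMM scaling and with a replicate block. A replicate block called 1258 higher and 1079 lower, and it ended the calls of PCNA and NDUFB9. Crossing the palbociclib numbers in that block, an alternative chosen after seeing the data, called 1556 and 1467. The 2 libraries a group, described as technical duplicates, limit what these calls say about other cultures.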
